A study of Mus musculus with 18 samples.

Results

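The genes described here were 10 C-type lectin receptors of macrophages, chosen by symbol from the 22852 gene symbols in the count files: Clec4a1, Clec4a2, Clec4a3, Clec4d, Clec4e, Clec4n, Clec5a, Clec7a, Clec10a and Clec12a. Earlier results of these data were known when they were chosen. Counts set beside the share of all tested genes therefore describe this list and do not test it. All 10 were among the 11305 genes that passed the expression filter. They were followed in 18 RNA-Seq samples of bone marrow-derived macrophages (BMDMs) of female C57BL/6 mice, grown for 7 days in medium conditioned by L929 cells, with 3 biological replicates in each of 6 groups. Unstimulated BMDMs received neither agent. LPS-primed BMDMs received LPS, the cell wall lipid of Gram-negative bacteria, at 100 ng/ml over 24 h. In LPS-tolerant BMDMs this was followed by fresh medium with 10 ng/ml LPS for 3 h. LPS-stimulated BMDMs received 10 ng/ml LPS as their first and single exposure, for 3 h by the treatment scheme of the study. Carboplatin, a platinum drug that binds to DNA, was added at 25 µM from 1 h before the first LPS in the LPS-primed + carboplatin and LPS-tolerant + carboplatin groups.

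C-type lectin receptors are membrane proteins with a carbohydrate-recognition fold, through which macrophages bind fungal, mycobacterial and self ligands. One class activates the cell: Mincle (Clec4e), MCL (Clec4d) and Dectin-2 (Clec4n) signal through the FcRγ adaptor Fcer1g, Clec5a through the DAP12 adaptor Tyrobp, and Dectin-1 (Clec7a) through a tyrosine motif of its own tail, and these paths meet at the kinase Syk and the Card9, Bcl10 and Malt1 complex. Another class, with Clec4a2 (DCIR1) and Clec12a (MICL), carries an inhibitory tyrosine motif that recruits the phosphatases Ptpn6 and Ptpn11. Clec4a1 and Clec4a3 encode receptors closely related to DCIR1, and Clec10a encodes MGL1, which binds galactose and N-acetylgalactosamine and is often used to mark alternatively activated macrophages.

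Gene counts summed to between 6869667 and 14708099 read pairs per library (median 8986463). The 7 macrophage markers listed (Adgre1, Cd68, Csf1r, Itgam, Lyz2, Mertk and Fcgr1) were all above the expression filter. Of 6 dendritic cell markers none passed that filter, and their summed level reached at most 13.1 normalized counts, which are counts scaled to a common library size. Among 7 neutrophil markers, S100a8 passed the filter and Ly6g and Mpo had no count in any sample. The levels of S100a8 are given beside Clec4n. Among 5 stromal markers, Dcn passed the filter and was higher after LPS priming, at 27.5, 53.5 and 55.3 normalized counts against 0, 0 and 0.909 in unstimulated BMDMs. Dcn was also higher in LPS-stimulated than in unstimulated BMDMs, at 0, 6.92 and 12.8 (edgeR adjusted p = 0.01314), and higher again in LPS-tolerant BMDMs, at 45.6, 46.6 and 66.9 (against LPS-stimulated, edgeR adjusted p = 0.00317), and its part in the results was not tested. In bulk samples, fewer cells of a type and less RNA per cell cannot be told apart.

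In the GENCODE annotation of GRCm39, 9 of the 10 genes lay on chromosome 6 and Clec10a on chromosome 11 (70047023 to 70061660, plus strand). The 6 Clec4 genes fell within 371 kb (122896122 to 123266829), and Clec12a and Clec7a within 130 kb (129319654 to 129449742). Clec5a stood apart from both groups (40551234 to 40562773, minus strand). Clec4d and Clec4e are neighbours whose 3′ ends face each other, with 6517 bp between them. The annotation places transcripts of other genes over Clec4a2 (Gm44132 on its own strand and Gm67020 on the opposite strand), Clec4d (Gm68468, opposite strand) and Clec5a (Or9a4, opposite strand). Exonic windows of 100 bases were shared with another gene at 1.95% of positions in Clec4a2 (with Clec4a4) and 2.64% in Clec10a (with Mgl2), so the counts of these 2 genes are slightly uncertain. In the other 8 genes no such window was shared. Only transcripts of genes on chromosomes 6 and 11 were searched.

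RefSeq promoter windows, from 250 bases before the start to 50 bases after it, were at hand for 8 of the 10 genes, and each matched GRCm39 once. Those of 4 genes with different responses below are shown: Clec4e and Clec4d, which faced each other and both rose after LPS, Clec4a2, which rose after priming and fell after the short single exposure, and Clec7a, which fell after priming. Capitals mark matches, on either strand, to short sequences known to be bound by 5 factor families: C/EBP (TTGCNNAA), AP-1 (TGANTCA), PU.1 (GAGGAA), the interferon-stimulated response element (ISRE) and the NF-κB motif.
Clec4e, chr6:123266781-123267080, minus strand: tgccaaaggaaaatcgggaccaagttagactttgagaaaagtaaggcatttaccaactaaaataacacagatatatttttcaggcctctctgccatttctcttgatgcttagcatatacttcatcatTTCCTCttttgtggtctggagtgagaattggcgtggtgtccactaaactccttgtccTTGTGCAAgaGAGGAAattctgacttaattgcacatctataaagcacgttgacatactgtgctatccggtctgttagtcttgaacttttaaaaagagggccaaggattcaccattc
Clec4d, chr6:123238816-123239115, plus strand: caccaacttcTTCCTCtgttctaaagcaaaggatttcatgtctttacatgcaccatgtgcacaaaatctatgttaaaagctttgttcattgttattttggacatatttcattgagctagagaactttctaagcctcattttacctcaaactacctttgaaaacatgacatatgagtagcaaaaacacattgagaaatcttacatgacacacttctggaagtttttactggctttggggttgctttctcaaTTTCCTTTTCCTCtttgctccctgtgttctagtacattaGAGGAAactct
Clec4a2, chr6:123099399-123099698, plus strand: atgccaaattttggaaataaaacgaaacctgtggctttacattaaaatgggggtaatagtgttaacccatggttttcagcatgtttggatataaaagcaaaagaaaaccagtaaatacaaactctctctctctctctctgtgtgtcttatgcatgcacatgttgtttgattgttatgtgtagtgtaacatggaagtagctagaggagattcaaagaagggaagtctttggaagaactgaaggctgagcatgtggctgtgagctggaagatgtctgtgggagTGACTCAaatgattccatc
Clec7a, chr6:129449693-129449992, minus strand: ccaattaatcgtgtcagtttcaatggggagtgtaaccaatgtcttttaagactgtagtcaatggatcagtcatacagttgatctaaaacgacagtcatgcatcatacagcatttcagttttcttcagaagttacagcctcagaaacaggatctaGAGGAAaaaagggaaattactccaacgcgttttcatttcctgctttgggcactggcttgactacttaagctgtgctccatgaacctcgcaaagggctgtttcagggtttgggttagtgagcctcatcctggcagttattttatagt
The Clec4e window held 1 C/EBP match, starting 66 bases before the start, and 2 PU.1 matches. That of Clec4d held 1 ISRE match and 3 PU.1 matches, one of which overlapped the ISRE match. The Clec4a2 window held an AP-1 match after the start and the Clec7a window a PU.1 match. The Clec4a2 window lies inside the gene as GENCODE places it, from 123083387, so it does not cover the first start annotated there. The same holds for the windows of Clec4a1 and Clec12a, which are not shown but are among the 8 counted next. A PU.1 match was present in 6 of the 8 windows, against 28.3% of 27025 promoters of this length. C/EBP and AP-1 matches were each present in 2 windows, against 10.8% and 7.93% of promoters, an ISRE match in 1 window, against 3.49%, and an NF-κB match in none of the 8, against 8.18%. These are matches of letters and were not tested as binding sites.

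**Figure D1:**
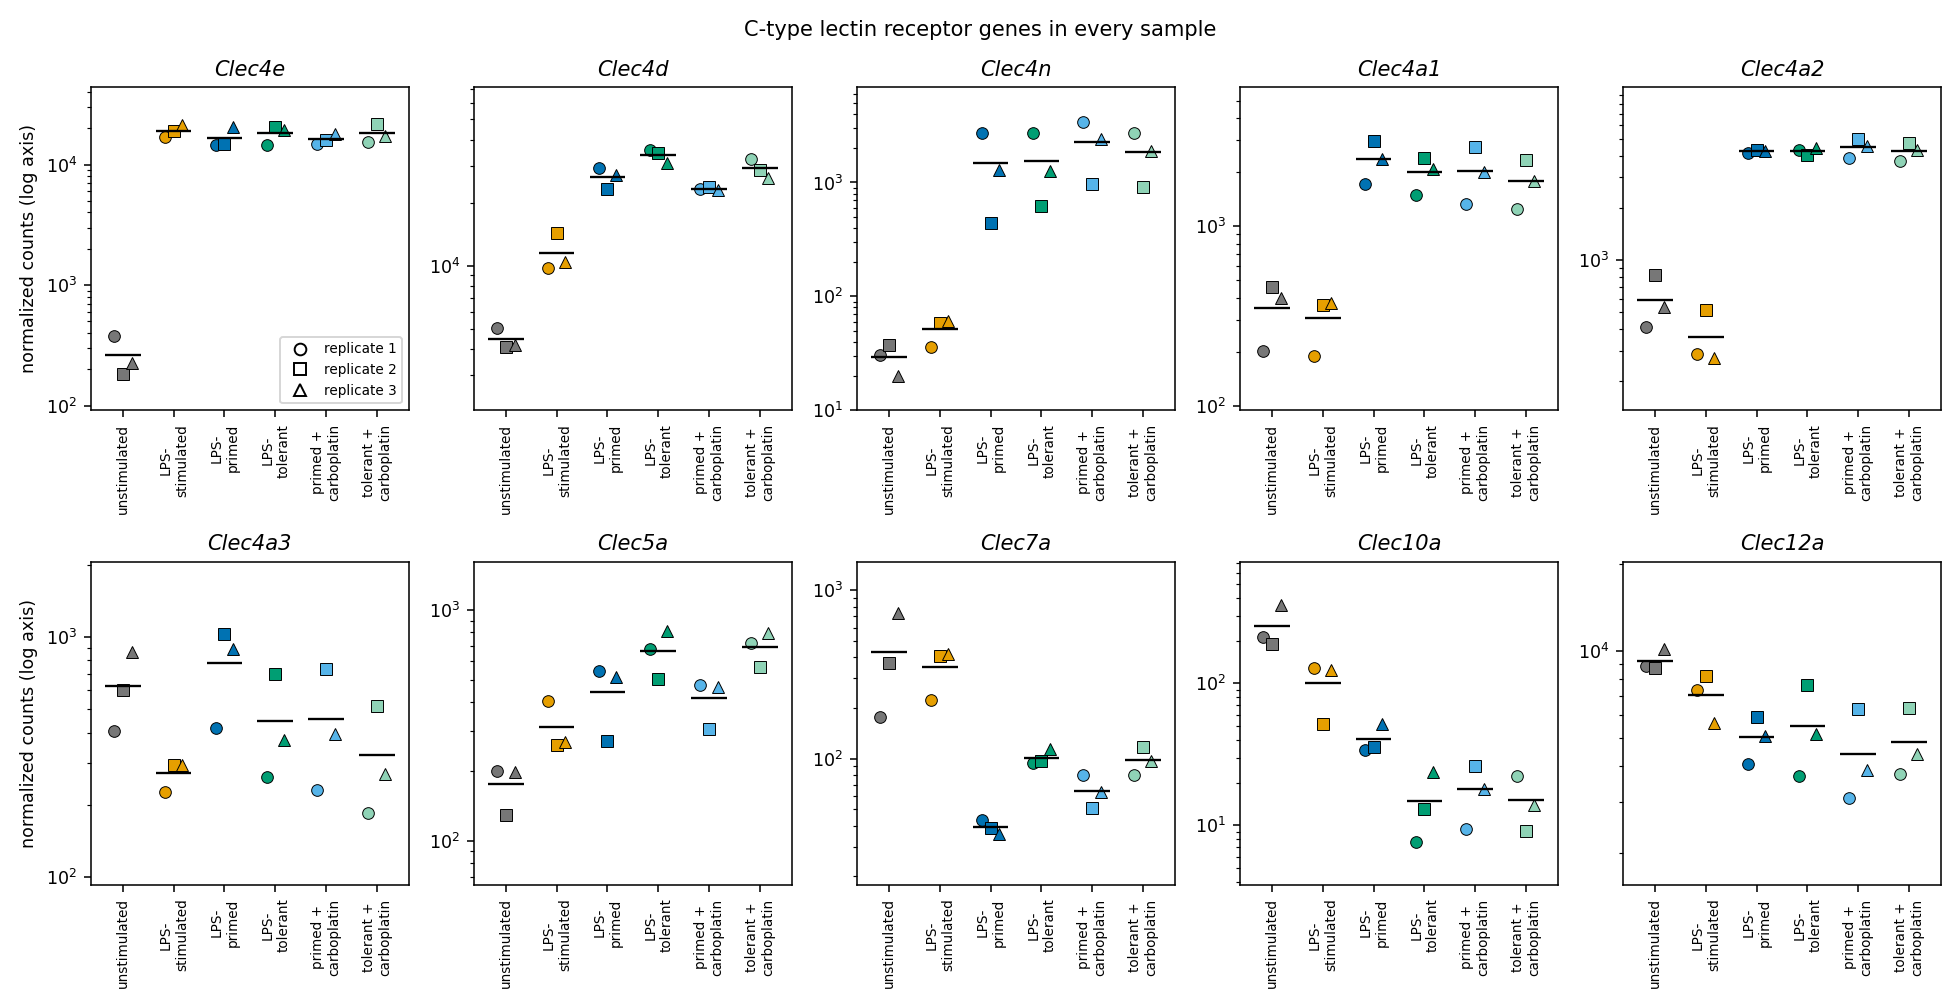
Normalized counts (log axis, different range for each gene) of the 10 genes in the 18 samples, with 1 marker per sample, shaped by replicate number, and the group mean as a line. Clec4e was at 183 to 377 in unstimulated BMDMs and at 14398 or more in every LPS-treated sample, while Clec7a and Clec10a were lower in the 4 groups with 24 h of LPS than in the other two.

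Per length (RPKM), Clec4d was the most abundant of the 10 transcripts in each group, and Clec12a was next in unstimulated BMDMs. In these cells Clec4d made up 53.1% ± 6.08 (SD, n = 3) of the summed RPKM of the 10 genes, Clec12a 30.1% ± 1.67 and Clec4e 1.00% ± 0.378. In LPS-primed BMDMs the shares were 67.5% ± 2.13, 3.55% ± 1.01 and 13.6% ± 2.55. After the single 10 ng/ml exposure, Clec4e reached its highest share, 30.3% ± 4.22, with Clec4d at 55.7% ± 3.87. The sum itself was 561 ± 25.9 RPKM in unstimulated, 1372 ± 198 in LPS-stimulated, 2629 ± 260.3 in LPS-primed and 3140 ± 149 in LPS-tolerant BMDMs, and the samples of these 4 groups did not overlap. Thus, per length, the receptor transcripts passed from a mixture led by Clec4d and Clec12a to one led by Clec4d and Clec4e. The order rests on the exon lengths used. In normalized counts, Clec12a was above Clec4d in unstimulated BMDMs (means 9249 and 4446). Clec4e was above Clec4d in LPS-stimulated BMDMs (means 19021 and 11480). The group means of Clec4n and Clec4e spanned 77.1-fold and 72.8-fold from the lowest to the highest group, whereas those of Clec12a and Clec4a3 spanned 2.10-fold and 2.88-fold.

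**Figure D2:**
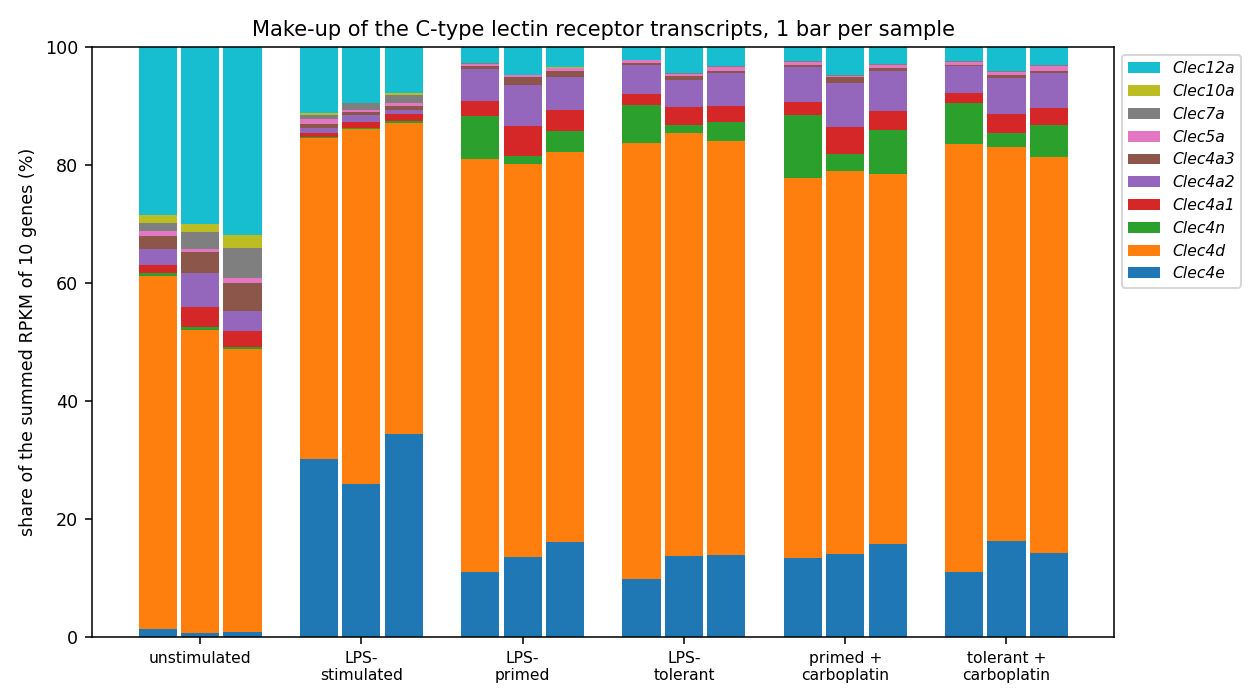
Share (%) of each gene in the summed RPKM of the 10 genes, with 1 stacked bar per sample and 3 bars per group. The Clec12a share was 28.4% to 31.8% in unstimulated BMDMs and 2.63% to 4.63% in LPS-primed BMDMs, and the Clec4e share was 26.0% to 34.5% in LPS-stimulated BMDMs.

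LPS priming was first compared with no stimulation, to see which receptors differ after 24 h of LPS. Of the 10 genes, 6 rose (Clec4e, Clec4d, Clec4n, Clec4a1, Clec4a2 and Clec5a) and 3 fell (Clec7a, Clec10a and Clec12a) at an adjusted p under 0.05, where 25.2% of all tested genes passed (12.1% higher and 13.1% lower). The median log2FC of the 10 genes was 1.96, against -0.02 over all tested genes. Samples of the 2 groups did not overlap for 9 of the 10 genes, as for 39.4% of all tested genes. At the limits used in the study for differentially expressed genes (DEGs), an absolute log2FC over 2 with an adjusted p under 0.05, 5 were higher and 2 lower, against 3.41% and 4.07% of all tested genes.

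All 3 FcRγ-coupled receptors rose. Clec4e, the receptor for the mycobacterial cord factor, stood at 377, 183 and 224 normalized counts in replicates 1 to 3 of unstimulated BMDMs and at 14398, 14726 and 20533 in LPS-primed BMDMs, a log2FC of 5.99 (SE 0.28, edgeR adjusted p = 1.6e-10). Clec4d, which pairs with Mincle on the cell surface, began much higher, at 5066, 4082 and 4190, and reached 29386, 23158 and 27119 (log2FC 2.58, SE 0.16, edgeR adjusted p = 4.7e-09). Every LPS-primed sample was above every unstimulated sample for both genes. Clec4n, the receptor for fungal mannans, was near the bottom of the range without LPS, at 30.6, 37.7 and 20.0, and at 2734, 439 and 1284 after priming (log2FC 5.65, SE 0.75, edgeR adjusted p = 2.7e-05). The LPS-primed replicates of Clec4n thus differed among themselves by 6.23-fold, against 1.43-fold for Clec4e and 1.27-fold for Clec4d.

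The neutrophil marker S100a8, which activated macrophages may also express, rose after priming as well. It stood at 12.4, 11.5 and 6.36 normalized counts in unstimulated BMDMs and at 433, 80.9 and 201 in LPS-primed BMDMs, with replicate 1 highest and replicate 2 lowest, as for Clec4n. Across the 6 groups, Clec4n was highest in replicate 1 in 4 groups and lowest in replicate 2 in 4, and S100a8 in 5 and 5. The summed level of the 7 neutrophil markers was 7.27 to 13.1 in unstimulated and 84.3 to 438 in LPS-primed BMDMs. In each of these groups the 6 markers other than S100a8 had 3 counts or fewer, so this rise was that of S100a8. Over all groups, 4 of the markers were at 3 counts or fewer in every one of the 18 samples. The part of neutrophils in the Clec4n values was not tested.

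Among the DCIR genes, the inhibitory Clec4a2 stood at 409, 819 and 537 normalized counts without LPS and at 4163, 4346 and 4272 after priming (log2FC 2.85, SE 0.25, edgeR adjusted p = 2.4e-07). Clec4a1 rose to a similar degree, from 203, 458 and 396 to 1716, 2967 and 2380 (log2FC 2.74, SE 0.36, edgeR adjusted p = 2.6e-05). The primed replicates of Clec4a2 lay within 1.04-fold of each other, the narrowest spread of the 10 genes in this group. Clec4a3 stood at 407, 604 and 866 without LPS and at 417, 1028 and 896 with it, and its groups overlapped (log2FC 0.32, SE 0.46, edgeR adjusted p = 0.6724). Clec5a, the DAP12-coupled receptor, rose from 129 to 201 normalized counts to 272 to 546 (log2FC 1.33, SE 0.28, edgeR adjusted p = 0.002008).

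Clec7a, the β-glucan receptor, moved the other way. It stood at 176, 369.6 and 737 normalized counts in unstimulated BMDMs, a 4.19-fold spread, and at 43.4, 38.7 and 35.6 in LPS-primed BMDMs (log2FC -3.44, SE 0.41, edgeR adjusted p = 8.2e-06). Clec10a fell from 211, 189 and 359 to 33.9, 35.3 and 51.6 (log2FC -2.64, SE 0.43, edgeR adjusted p = 2.0e-04). Both groups were well apart for each gene, although replicates 1 to 3 of Clec7a varied widely before LPS. Clec12a, the inhibitory receptor for uric acid crystals, fell less, from 8751 to 10160 normalized counts to 4061 to 5924 (log2FC -0.88, SE 0.28, edgeR adjusted p = 0.02702). That call was lost without unstimulated replicate 2 or 3 or LPS-primed replicate 1 or 3 (edgeR adjusted p up to 0.11, and 4.5e-04 to 0.11 over all 15 alternatives).

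**Figure D3:**
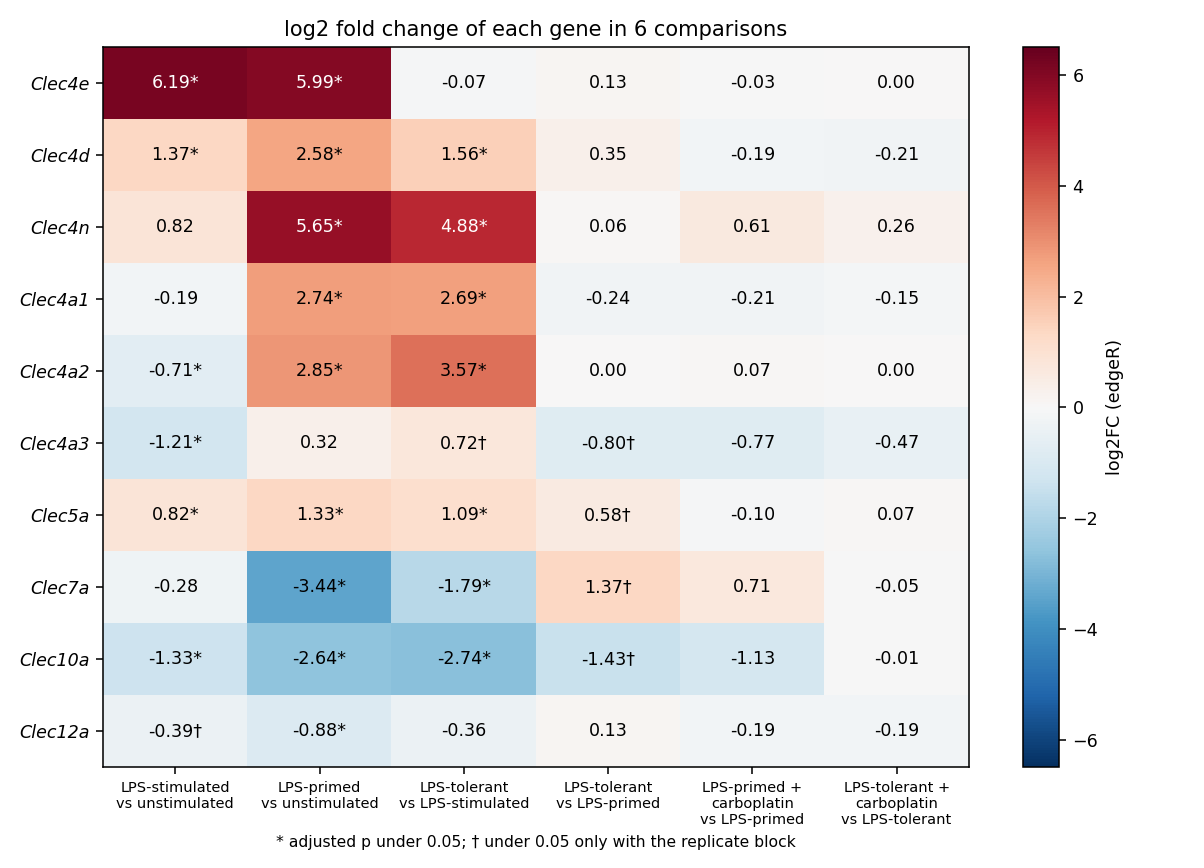
Fitted log2FC of the 10 genes (rows) in 6 comparisons (columns), coloured from blue (lower) to red (higher), with a star at an adjusted p under 0.05 and a dagger where this held only with replicate number as a block. Stars cover 9 genes in the LPS-primed column, 6 in the LPS-stimulated column, 7 in the column of LPS-tolerant against LPS-stimulated BMDMs, and none in the other 3 columns.

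The single 10 ng/ml exposure was compared with no stimulation to show which receptors respond without earlier LPS. Clec4e, Clec4d and Clec5a rose and Clec4a2, Clec4a3 and Clec10a fell, 6 of 10 genes at an adjusted p under 0.05, against 51.2% of all tested genes (24.3% higher and 26.9% lower), so the count was near the background. Clec4e stood at 16838, 19136 and 21089 normalized counts, all above its unstimulated levels (log2FC 6.19, SE 0.29, edgeR adjusted p = 5.1e-11), and it was the one gene of the 10 that passed the DEG limits, which 6.42% of all tested genes passed upward. Clec4d reached 9762, 14266 and 10411, above the unstimulated samples and below every LPS-primed sample (log2FC 1.37, SE 0.16, edgeR adjusted p = 1.8e-06). The doses and times of priming and of the single exposure differ, so that these levels stand side by side and were not compared by a test.

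Clec4n, Clec4a2 and Clec4a1, which rose after priming, did not pass upward after the single exposure. Clec4n stood at 35.8, 58.1 and 61.1 normalized counts, overlapping the unstimulated samples (log2FC 0.82, SE 0.73, edgeR adjusted p = 0.3682), whereas S100a8 rose, to 109.8, 38.1 and 116 (log2FC 3.09, SE 0.78, edgeR adjusted p = 0.003273). Clec4a2 was lower than in the unstimulated sample of the same number in 3 of 3 pairs, at 289, 513 and 272, but the groups overlapped (log2FC -0.71, SE 0.24, edgeR adjusted p = 0.01926). Clec4a1 stood at 189 to 375 against 203 to 458, and did not pass the test (log2FC -0.19, edgeR adjusted p = 0.6753). Clec4a3 fell to 226 to 294 (log2FC -1.21, SE 0.47, edgeR adjusted p = 0.03919), so that it was the lowest of its 6 groups, as were Clec4a1 and Clec4a2.

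Clec5a rose to 261 to 404 normalized counts (log2FC 0.82, SE 0.28, edgeR adjusted p = 0.02274) and Clec10a fell to 128, 51.9 and 124 (log2FC -1.33, SE 0.40, edgeR adjusted p = 0.01119). Clec7a, at 224, 409 and 419, overlapped its unstimulated samples (log2FC -0.28, edgeR adjusted p = 0.5328). Clec12a stood at 5638 to 8174, below every unstimulated sample, and passed the test with replicate number as a block, as did 63.2% of all tested genes (edgeR adjusted p = 0.04718, against 0.2466 without it and 0.037 to 0.53 over 15 alternatives). The smaller calls of this comparison rested on single libraries. Those of Clec4a2 and Clec5a were lost without unstimulated replicate 2 or LPS-stimulated replicate 1, and that of Clec4a2 also without LPS-stimulated replicate 3 (edgeR adjusted p up to 0.19). That of Clec4a3 was lost without any one of the 6 libraries other than unstimulated replicate 1, and that of Clec10a without unstimulated replicate 3 or LPS-stimulated replicate 2 (edgeR adjusted p up to 0.16). The count of 6 genes became 3 without unstimulated replicate 2 or LPS-stimulated replicate 1, and 4 without any one of unstimulated replicate 3 and LPS-stimulated replicates 2 and 3.

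LPS-tolerant BMDMs were compared with LPS-stimulated BMDMs, which received the same last dose of LPS without the earlier one. Clec4n, Clec4a2, Clec4a1, Clec4d and Clec5a were higher and Clec10a and Clec7a lower in the tolerant cells, 7 of 10 genes, against 34.5% of all tested genes (16.2% higher and 18.3% lower). The samples of the 2 groups did not overlap for these 7 genes, as for 44.2% of all tested genes, and 3 passed the DEG limits upward and 1 downward, against 2.97% and 5.07%. Clec4a2 stood at 4315, 4029 and 4426 normalized counts in tolerant and 289, 513 and 272 in stimulated cells (log2FC 3.57, SE 0.26, edgeR adjusted p = 2.5e-08). Clec4n was at 2746, 627 and 1271 in tolerant cells (log2FC 4.88, SE 0.72, edgeR adjusted p = 5.4e-05), with a 4.38-fold spread between replicates. Beside it, S100a8 stood at 524, 130.4 and 309 in tolerant and at 109.8, 38.1 and 116 in stimulated cells (log2FC 1.88, SE 0.63, edgeR adjusted p = 0.02859).

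Clec4e did not differ by more than the spread in this comparison, at 14651, 20490 and 19167 normalized counts in tolerant cells (log2FC -0.07, SE 0.23, edgeR adjusted p = 0.8399). Clec4d was highest here of all 6 groups, at 35593, 34591 and 31081 (log2FC 1.56, SE 0.16, edgeR adjusted p = 1.1e-06 against stimulated cells). The 2 partner receptors were therefore ordered differently over the groups, with overlapping Clec4e levels in the LPS-stimulated and LPS-tolerant samples and separate Clec4d levels. Clec4a1 was higher in tolerant cells by a log2FC of 2.69 (SE 0.36, edgeR adjusted p = 2.4e-05) and Clec5a by 1.09 (SE 0.28, edgeR adjusted p = 0.005512). Clec7a, at 93.7, 96.7 and 114 normalized counts, was lower than in any stimulated sample (log2FC -1.79, SE 0.38, edgeR adjusted p = 0.00135). Clec10a, at 7.60, 13.0 and 23.7, was lower as well (log2FC -2.74, SE 0.47, edgeR adjusted p = 2.3e-04), from raw counts that went down to 6 in a tolerant library. Clec12a did not pass the test (log2FC -0.36, edgeR adjusted p = 0.3444). Clec4a3, at 262, 702 and 374 in tolerant cells, was higher in 3 of 3 pairs and passed only with the replicate block, as did 47.6% of all tested genes (log2FC 0.62, SE 0.24, edgeR adjusted p = 0.04478, against 0.2503 without it and 0.045 to 0.76 over 15 alternatives).

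The second LPS exposure, given in fresh medium, was then set against the primed state from which it started. None of the 10 genes passed edgeR's test in LPS-tolerant against LPS-primed BMDMs (6.31% of all tested genes did). Of the 10, 3 had an unadjusted p under 0.05 (Clec4d, Clec7a and Clec10a), a share that was not counted over all tested genes. DESeq2 called 2 (Clec7a and Clec10a), against 9.97% of all tested genes. With replicate number as a block, 4 passed, against 18% of all tested genes. Clec7a was higher (log2FC 1.35, SE 0.37, edgeR adjusted p = 0.01696 with the block and 0.05256 without it), and its tolerant samples, at 93.7 to 114 normalized counts, did not overlap the primed samples, at 35.6 to 43.4. Clec10a was lower (log2FC -1.43, SE 0.42, edgeR adjusted p = 0.02571 with the block and 0.08776 without it), again with no overlap. Clec5a was higher by 0.61 (SE 0.15, edgeR adjusted p = 0.008531 with the block and 0.2373 without it) and Clec4a3 was lower (log2FC -0.82, SE 0.24, edgeR adjusted p = 0.02349 with the block and 0.345 without it), each in 3 of 3 pairs and with overlapping groups. Clec4d was above the primed samples in all 3 tolerant samples (log2FC 0.35, SE 0.15, edgeR adjusted p = 0.2011), one of 3 members whose groups did not overlap, against 26.2% of all tested genes. Over the alternatives the adjusted p was 0.012 to 0.21 for Clec7a, 0.026 to 0.26 for Clec10a, 0.0085 to 0.60 for Clec5a, 0.023 to 0.64 for Clec4a3 and 0.081 to 0.48 for Clec4d.

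The response to 10 ng/ml LPS in primed cells was tested directly against that in cells without earlier LPS, as the difference of the 2 log2FC. It was smaller for Clec4e, by a difference of -6.06 (SE 0.35, edgeR adjusted p = 2.9e-09), and for Clec4d, by -1.02 (SE 0.22, edgeR adjusted p = 0.002239). Both genes had risen after the first exposure and were already high in primed cells, Clec4e at 16552 ± 3451 and Clec4d at 26555 ± 3152 normalized counts (SD, n = 3). For Clec7a the difference was 1.65 (SE 0.54, edgeR adjusted p = 0.034), with a level in primed cells of 39.3 ± 3.91. These 3 of 10 genes compare with 23.8% of all tested genes. The Clec4e and Clec4d calls held in all 21 alternatives tried, whereas that of Clec7a was lost in 9 of 21, among them those without unstimulated replicate 3, any one of the 3 LPS-primed replicates, LPS-tolerant replicate 2 or 3, or LPS-stimulated replicate 1 (edgeR adjusted p up to 0.12 in these). With the replicate block, under which 36.2% of all tested genes passed, Clec4a2 passed as well (difference 0.71, SE 0.24, edgeR adjusted p = 0.02926, against 0.1401 without it and 0.016 to 0.42 over 21 alternatives).

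**Figure D4:**
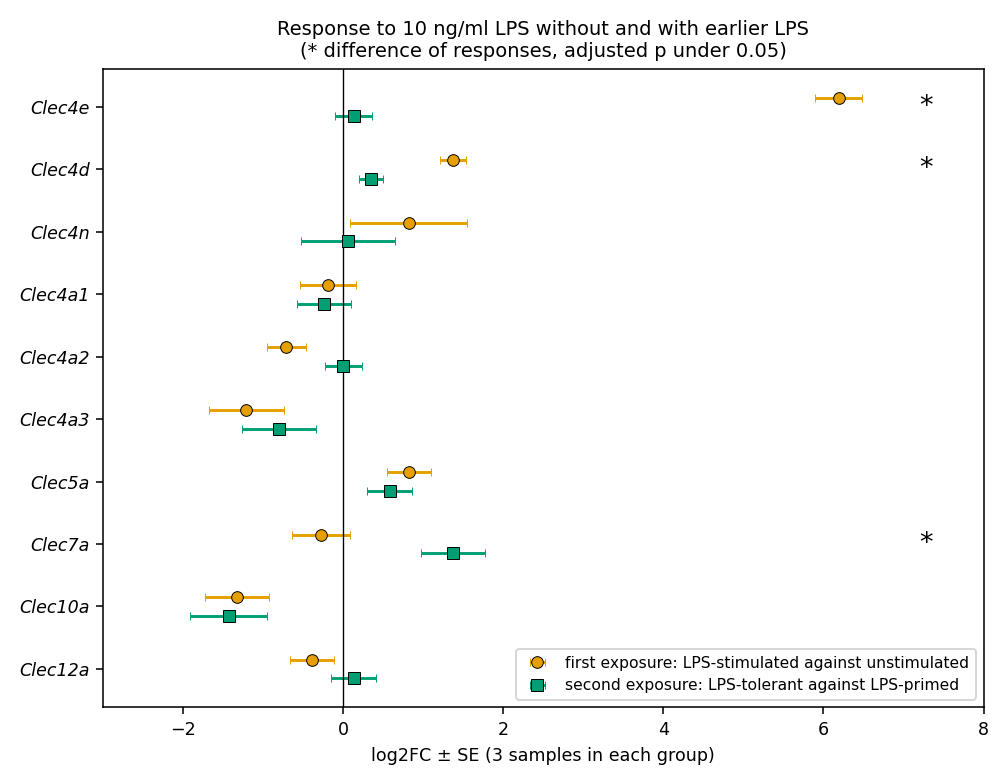
Fitted log2FC ± SE of the 10 genes after 10 ng/ml LPS, in cells without earlier LPS (circles) and, in fresh medium, in LPS-primed cells (squares), 3 samples in each group, with a star where the difference of the 2 responses had an adjusted p under 0.05. The Clec4e circle lies at 6.19 and its square close to 0, and the difference was -6.06.

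Carboplatin was compared with no drug in both LPS states. No member passed edgeR's test in LPS-primed BMDMs, where 0.372% of all tested genes did, nor in LPS-tolerant BMDMs, where 0.425% did. The log2FC of the 10 genes ran from -1.13 to 0.71 in primed and from -0.47 to 0.26 in tolerant cells. Of these genes, 1 and 0 had an unadjusted p under 0.05, which was not counted over all tested genes. The counts at an adjusted p under 0.05 were also 0 with DESeq2, limma-voom and the replicate block. DESeq2 called 1.07% and 1.34% of all tested genes in the 2 states, and the block 1.77% in each. In primed cells the largest differences in size were those of Clec10a, Clec4a3 (log2FC -0.77, SE 0.46, edgeR adjusted p = 0.8418, groups overlapping) and Clec7a. Clec10a was lower with carboplatin, at 9.45, 26.3 and 18.1 against 33.9, 35.3 and 51.6 normalized counts (log2FC -1.13, SE 0.47, edgeR adjusted p = 0.5896). Clec7a was higher with it, at 79.7, 50.8 and 63.4 against 43.4, 38.7 and 35.6 (log2FC 0.71, SE 0.41, edgeR adjusted p = 0.8414). The groups of Clec10a and Clec7a did not overlap, as for 12.9% of all tested genes. In tolerant cells Clec10a stood at 22.3, 9.11 and 13.8 with and 7.60, 13.0 and 23.7 without the drug, and Clec7a at 80.0, 117 and 96.5 with and 93.7, 96.7 and 114 without it, so that both overlapped. The difference between the 2 drug effects did not pass for any member, as for 0% of all tested genes, and no member had an unadjusted p under 0.05 for it.

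The 2 most abundant members, Clec4d and Clec4e, varied little with the drug. Their log2FC were -0.19 and -0.03 in primed cells and -0.21 and 0.00 in tolerant cells. Clec4e stood at 14873 to 17917 normalized counts in LPS-primed + carboplatin and at 15369 to 21869 in LPS-tolerant + carboplatin BMDMs, overlapping the groups without drug. Clec4d was at 23099 to 23721 and at 26328 to 32390, and Clec4n at 963 to 3430 and at 919 to 2733. Clec4n was higher with carboplatin in 3 of 3 primed pairs and 2 of 3 tolerant pairs, within its wide spread. Clec4a3 was lower with the drug in 3 of 3 pairs of both states, at 231 to 739.7 and 186 to 517 normalized counts, and Clec4a1 likewise, at 1337 to 2776 and 1247 to 2348, in each case overlapping the groups without drug. Clec4d was lower in 3 of 3 tolerant pairs, and Clec10a in 3 of 3 primed pairs. Of the macrophage markers, Adgre1, Cd68, Itgam, Lyz2 and Fcgr1 were also lower in 3 of 3 pairs of both states. Csf1r was so in tolerant cells only, and Mertk in primed cells only. Such pairs were not counted over all tested genes. Clec4a2 (3715 to 4968), Clec5a (305 to 794) and Clec12a (3097 to 6323) overlapped the groups without drug in both states.

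Differences between replicate numbers ran through several members. Clec4a1 and Clec4a3 were lowest in replicate 1 in 6 of 6 groups, and Clec5a was lowest in replicate 2 in 6 of 6. Clec12a was highest in replicate 2 in 5 of 6 groups and Clec4e lowest in replicate 1 in 5. The replicates of a number thus shared deviations from their group means, which the block removes.

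The signalling partners were counted in the same fits. Of 20 genes of the pathway, 7 rose and 2 fell after priming (25.2% of all tested genes passed), with a median log2FC of 0.39 against -0.02 over all tested genes, and 9 rose and 6 fell after the single exposure (51.2% of all tested genes passed), with a median of 0.30 against -0.09. With the replicate block, under which 38.6% of all tested genes passed after priming, 14 of the 20 passed in that comparison. The adaptor Fcer1g rose after priming, from 8599, 7183 and 6059 normalized counts to 12423, 12626 and 8700 (log2FC 0.63, SE 0.20, edgeR adjusted p = 0.0274), and did not pass after the single exposure (log2FC 0.10, edgeR adjusted p = 0.6826). Tyrobp stood at 5297 to 6124 without LPS and at 4056 to 4783 after priming, with no overlap, and passed with the replicate block (log2FC -0.36, SE 0.12) but not without it (SE 0.13, edgeR adjusted p = 0.05567). Hcst, the DAP10 adaptor, was low, at 20.0 to 36.1 and 23.4 to 77.3, and did not pass (edgeR adjusted p = 0.4768).

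Of 12 kinases and relays, 6 rose and 1 fell after priming, against 12.1% and 13.1% of all tested genes, and 8 rose and 3 fell after the single exposure, against 24.3% and 26.9%. Malt1, the protease of the Card9 complex, stood at 130.0, 184 and 229 normalized counts in unstimulated, 326, 474 and 641 in primed and 3971, 8609 and 7237 in stimulated BMDMs (log2FC 1.41 and 5.19, edgeR adjusted p = 0.001922 and 3.3e-09). Fgr, a Src-family kinase, rose in the same comparisons (log2FC 1.80 and 2.35, edgeR adjusted p = 0.001617 and 6.7e-05). In tolerant cells Malt1 was lower than in stimulated cells (log2FC -2.59, SE 0.30, edgeR adjusted p = 5.0e-06), at 984 to 1209, a comparison that Clec4e did not pass. Among 5 phosphatases and ligases, 1 gene fell after priming, the ubiquitin ligase Cblb, from 813 to 1246 to 321 to 443 normalized counts (log2FC -1.54, SE 0.24, edgeR adjusted p = 1.3e-04). After the single exposure, 1 of the 5 rose and 3 fell, against 24.3% and 26.9% of all tested genes. With the replicate block, 3 of the 5 passed after priming and 5 after the single exposure, against 38.6% and 63.2% of all tested genes.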

How the data were processed

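RNA-Seq libraries (stranded mRNA, paired reads) of 18 BMDM samples were aligned by the authors to GRCm39 with HISAT2 and counted per gene with HTSeq-count, and were deposited as raw read counts. The annotation, strand option and program versions are not given in the sources used here. Rows that name no gene, which held 41.5% to 46.9% of counted pairs, were left out. With 6869667 to 14708099 pairs per sample on genes, low counts carry a wide sampling error. Replicates of a group differed well beyond sampling noise (chi-square per degree of freedom 18.0 to 68.5).

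For testing, the quasi-likelihood F test of edgeR 4.0.16 (R 4.3.3) was run in 1 fit of all 18 samples, with TMM factors, the default filter (minimum count 10, minimum total 15) and Benjamini-Hochberg adjustment over 11305 genes. The text names a gene as risen or fallen at an adjusted p under 0.05. The log2FC used a prior count of 0.125, and its SE was derived from it and the F value (size of the log2FC over √F). Alternatives used DESeq2 1.42.0 and limma 3.58.1, other scalings and filters, a prior count of 2, only the groups compared, and single samples left out. Same-numbered samples deviated together, with a lowest correlation of deviations from the group means of 0.18 in the comparisons of 2 groups. Between LPS-primed and LPS-stimulated BMDMs, both part of the difference of responses, the lowest was 0.06. The numbers were taken to pair the samples, and a fit with replicate number as a block stands beside a result where it changes the call. The labels do not say what the numbers mark. The scripts were tested on simulated data.

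RPKM used GENCODE vM39 exon lengths, which may differ from the annotation the authors used. Of the tested symbols, 97.3% matched 1 GENCODE gene. Promoter sequences are from RefSeq (table of GRCm38.p6), placed on GRCm39 by exact match. All 10 genes are named, with each adaptor, the 2 called genes with the largest change after priming in each other signalling list, and the other Clec genes that passed the filter. The genes and lists were chosen with earlier results of these data known.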

Additional observations from a re-analysis of the deposited data

Results flagged for a closer look

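The response to 10 ng/ml LPS differed between cells without earlier LPS and LPS-primed cells for 3 of the 10 genes, by the test of the difference itself (edgeR, adjusted p under 0.05). Of all tested genes 23.8% passed this test, so the count of 3 was near the background. The difference of the log2FC, second minus first exposure, was -6.06 for Clec4e, -1.02 for Clec4d and 1.65 for Clec7a. The Clec7a call was lost in 9 of 21 alternatives, whereas those of Clec4e and Clec4d held in all 21. Clec4e and Clec4d were already high before the second exposure, whereas Clec7a was at its lowest group mean of the 6 groups. Whether the level before the exposure has a part in these differences was not tested. The second exposure also came with fresh medium, whose part cannot be told apart from that of LPS.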

How the results depend on the processing

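Of the log2FC of single members recomputed under the alternatives, 589 kept their direction and their side of the threshold, 27 lost and 15 gained a call, and 5 turned direction. The count of members called, 6 after the single exposure, was 3 to 6 with 1 sample left out and 1 at the DEG limits, and that of 7 in tolerant against stimulated cells was 4 at the DEG limits. In tolerant against primed cells, 0 members became 1 without the expression filter, 2 with DESeq2, 4 with the replicate block and 1 with the fit of those groups alone. The block changed no other call of the members than those given above. All 5 turns of direction were in log2FC that had not passed the test: after the single exposure, Clec4a1 without unstimulated replicate 2 (0.069) or LPS-stimulated replicate 1 (0.066) and Clec7a without unstimulated replicate 3 (0.386), and in tolerant against stimulated cells, Clec4e without LPS-tolerant replicate 1 (0.062) or LPS-stimulated replicate 3 (0.010). With 1 sample left out these log2FC ranged from -0.445 to 0.069, from -0.635 to 0.386 and from -0.169 to 0.062. The cause of these changes was not tested. With library size alone as scaling, Clec5a after the single exposure no longer passed (edgeR adjusted p = 0.16, the highest of its 15 alternatives, the lowest being 1.5e-04). Counts down to 6 limit Clec10a.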

Other observations

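Of 33 symbols in the files that begin with Clec, 23 are not among the 10 genes above. Of these, 7 had no count in any sample, 4 passed the expression filter, and the rest reached at most 12 counts. Clec2i, a ligand of an NK cell lectin receptor, fell after priming, from 60.2, 37.7 and 49.1 to 15.9, 1.14 and 10.3 normalized counts (log2FC -2.39, SE 0.62, edgeR adjusted p = 0.008212), and after the single exposure to 7.16, 4.84 and 0.986. Clec2d, another such ligand, rose after priming, from 4.78, 12.3 and 10.9 to 47.6, 33.0 and 20.6 (log2FC 1.83, SE 0.41, edgeR adjusted p = 0.003277). Clec4b1, a neighbour of the Clec4 genes, fell (log2FC -2.85, SE 0.96, edgeR adjusted p = 0.03653) from low levels, 14.3, 38.5 and 16.4 normalized counts. Clec16a, an endosomal protein without a lectin role, passed in LPS-tolerant against LPS-primed BMDMs with the replicate block only, where it was lower, at 153, 154 and 180.2 against 220.1, 256 and 256 (log2FC -0.59, edgeR adjusted p = 0.01324, against 0.1135 without the block).

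The genes whose log2 levels ran most like those of the members over the 18 samples were Acod1, the itaconate-producing enzyme, for Clec4e (Pearson r 0.989), Pla2g7 for Clec4a2 (0.988), Arg1, or arginase 1, for Clec4n (0.987), Itgam for Clec4a1 (0.978) and Serpinb2 for Clec4d (0.975). For the others they were Enc1 for Clec7a (0.958), Ms4a6c for Clec4a3 (0.938), Ak3 for Clec10a (0.936), Dynll1 for Clec5a (0.933) and Cenpq for Clec12a (0.933). The 18 points share 6 groups, so that these values describe likeness over groups as much as over samples, and they are given without a test.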
